A study of Mus musculus with 6 samples.

Results

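The genes described here were grouped under extracellular ATP and adenosine signalling. Their mRNA was measured in mouse immature dendritic cells with and without fluid shear stress (FSS). They were chosen by gene symbol as a set of 10, out of 22899 genes in the expression table: Panx1, P2rx4, P2rx7, P2ry2, P2ry6, P2ry10, Entpd1, Nt5e, Adora2a and Adora2b. The cells had been grown from marrow of male C57BL/6 mice aged 7 weeks for 7 days in medium holding 10 ng/ml of IL-4 and GM-CSF at 20 ng/ml, and were then isolated by CD11c, an integrin subunit of dendritic cells. Both groups share that culture and isolation, and neither carries a transgene in the labels. The 3 FSS cultures were exposed to 10 dyn/cm2 for 3 h in a cone-plate device, and the 3 controls were cultured statically. The labels do not say whether the replicates came from separate animals or cultures, so each p-value reflects no more than sample-to-sample spread, possibly of technical origin.

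ATP is abundant inside cells and scarce outside them. It leaves through channels such as pannexin-1, and outside the cell it opens P2X cation channels and activates P2Y receptors, which couple to G proteins. The ectoenzymes CD39 and CD73 then cut it down to AMP and on to adenosine, which acts on receptors that raise or lower cyclic AMP. In dendritic cells ATP through P2X7 is known as a trigger of the NLRP3 inflammasome, and adenosine through the receptors of Adora2a and Adora2b is known to dampen inflammatory cytokine output.

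P2rx7, the gene of the ATP-gated channel P2X7, stood 4.12-fold higher under FSS and was the only member of the set that passed the test without regard to replicate number. When the replicate numbers were treated as pairs, Entpd1 (CD39) also rose, by 1.43-fold, while Panx1 and P2ry6 fell to 0.63 and 0.563 times the static mean. P2rx4, P2ry2, P2ry10 and the adenosine receptor genes Adora2a and Adora2b did not pass in either of these fits. Nt5e (CD73) was near 1 FPKM in both groups and was not tested. FPKM are fragments per kilobase of transcript, scaled to the number of mapped fragments, a unit inferred here from the values. Because the RNA came from CD11c-isolated cells in bulk, fewer cells of a type and less RNA per cell cannot be told apart.

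Promoter windows of 250 bases before to 50 after a transcript start were on hand from RefSeq (GRCm38.p6) for 8 of the 10 genes, 12 windows in all, with none for P2ry6 and Adora2a. Stretches are shown for P2rx7, Entpd1 and Panx1, which passed with the replicate numbers as pairs. The windows were searched on both strands for a cyclic AMP response element core (TGACG), a hypoxia response element core (ACGTG), an SP1 box (GGGCGG) and a heat shock element (GAANNTTC). Matches are in capitals as they read on the strand of the gene, so a match on the other strand shows as its reverse complement, and none of the matches printed overlaps another. The 250 bases upstream of the outer P2rx7 start (chr5:122643677-122643926, plus strand) held 2 SP1 boxes, and 30 bases just downstream of an inner P2rx7 start (chr5:122650400-122650429, plus strand) held 1 heat shock element. The stretches of 65 bases from both Entpd1 windows (chr19:40612201-40612265 and chr19:40659557-40659621, plus strand) and from the Panx1 window (chr9:15045491-15045555, minus strand) each held 1 cyclic AMP core.
P2rx7, outer start: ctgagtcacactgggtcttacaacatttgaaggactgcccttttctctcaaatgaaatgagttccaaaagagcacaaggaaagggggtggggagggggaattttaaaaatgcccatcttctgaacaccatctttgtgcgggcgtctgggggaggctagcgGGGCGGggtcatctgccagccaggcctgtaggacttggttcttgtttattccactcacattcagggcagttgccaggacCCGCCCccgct
P2rx7, inner start: tggtgctctgaGAACCTTCtcaccatgctg
Entpd1, outer start: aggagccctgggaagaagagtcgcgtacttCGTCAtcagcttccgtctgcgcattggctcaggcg
Entpd1, inner start: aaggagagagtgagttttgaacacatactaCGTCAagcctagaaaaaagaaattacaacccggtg
Panx1: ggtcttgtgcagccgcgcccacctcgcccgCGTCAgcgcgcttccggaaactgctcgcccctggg
A heat shock element was in 2 of the 12 windows, against 7.86% of all 32851 windows in the table, and the other holder was Adora2b. The cyclic AMP core was in 5 of 12 (P2rx4, P2ry10, Panx1 and both Entpd1 windows), against 20.8%. The SP1 box was in 6 of 12 against 35.7%, and the hypoxia core in 3 of 12 against 19.6%. Genes that rose (Entpd1) and fell (Panx1) both held the cyclic AMP core. A match describes letters in a window and was not tested as a site.

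The state of the libraries bears on all that follows. Between 10390 and 10959 genes reached 1 FPKM per library, and the FPKM of a library summed to between 413898 and 470596. Depth in reads is unknown, and values carry no counting error here. The dendritic genes Itgax, H2-Ab1 and Cd74 were abundant (Itgax at 397 to 599 FPKM), whereas Flt3 and Cd209a stayed under 1 FPKM in all 6 libraries. Of the 10 dendritic genes listed, 8 were tested, and without regard to replicate number only Irf4 passed. Irf4, a transcription factor of dendritic cells, fell from 388 ± 55.0 to 106 ± 17.6 FPKM (mean ± SD, n = 3; limma adjusted p = 0.0133), with no overlap. With the replicate block, which treats equal replicate numbers as pairs, Irf4, Zbtb46, Ccr7, Cd86 and Itgax fell and 0 of the 8 rose. That fit called 25.1% of all tested genes lower and 7.73% higher. H2-Ab1, H2-Aa and Cd74 did not pass in it (limma adjusted p = 0.373, 0.485 and 0.24). After median-ratio scaling as well, Itgax no longer passed (adjusted p = 0.495), in a fit that called 16.8% of tested genes lower and 19.2% higher. The part of the falls of dendritic genes in the members' changes was not tested. The 8 macrophage genes listed summed to 351 to 512 FPKM in static and 328 to 524 FPKM in FSS libraries, and the 8 neutrophil genes to 283 to 506 and 249 to 418 FPKM. Lymphocyte genes (6) summed to under 5 FPKM and erythroid genes (4) to under 1 FPKM in every library; no listed gene of these lists was at 0 throughout. The 7 heat shock genes listed, taken as a sign of cell stress, summed to 1124 to 1590 FPKM in static and to 3737 to 5566 FPKM in FSS libraries. Hspa8 was the largest static term (mean 1139 FPKM), so the sum says little of lower genes. Hspa1a, for one, went from 14.5 ± 10.4 to 1107 ± 395 FPKM. Without the block 6 of the 7 passed as higher and 0 as lower, where 0.853% of all tested genes were higher. The part of these genes in the changes below was not tested. The median tested gene stood 0.12 lower under FSS on the log2(FPKM + 1) scale, and 0.02 higher after libraries were scaled by their median ratio.

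Levels per transcript length set the members apart. In static cells P2rx4 was highest at 56.7 FPKM, above 88.5% of tested genes, and Adora2b followed at 30.3 FPKM. P2ry6 (20.5 FPKM), Adora2a (19.5 FPKM) and Entpd1 (18.3 FPKM) overlapped in order, each with its neighbour. P2ry2 (9.8 FPKM), P2ry10 (9.25 FPKM) and Panx1 (6.2 FPKM) formed a lower run whose neighbours also overlapped, and P2rx7 (3.15 FPKM) and Nt5e (0.85 FPKM) lay below without overlap. Under FSS the order of P2rx4 (65.9 FPKM) and Adora2b (38.3 FPKM) was kept, and Entpd1 came next at 26.2 FPKM. P2rx7 reached 12.98 FPKM, above P2ry6 (11.5 FPKM), whose range it overlapped, and Panx1 (3.91 FPKM) lay above Nt5e alone.

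**Figure D1:**
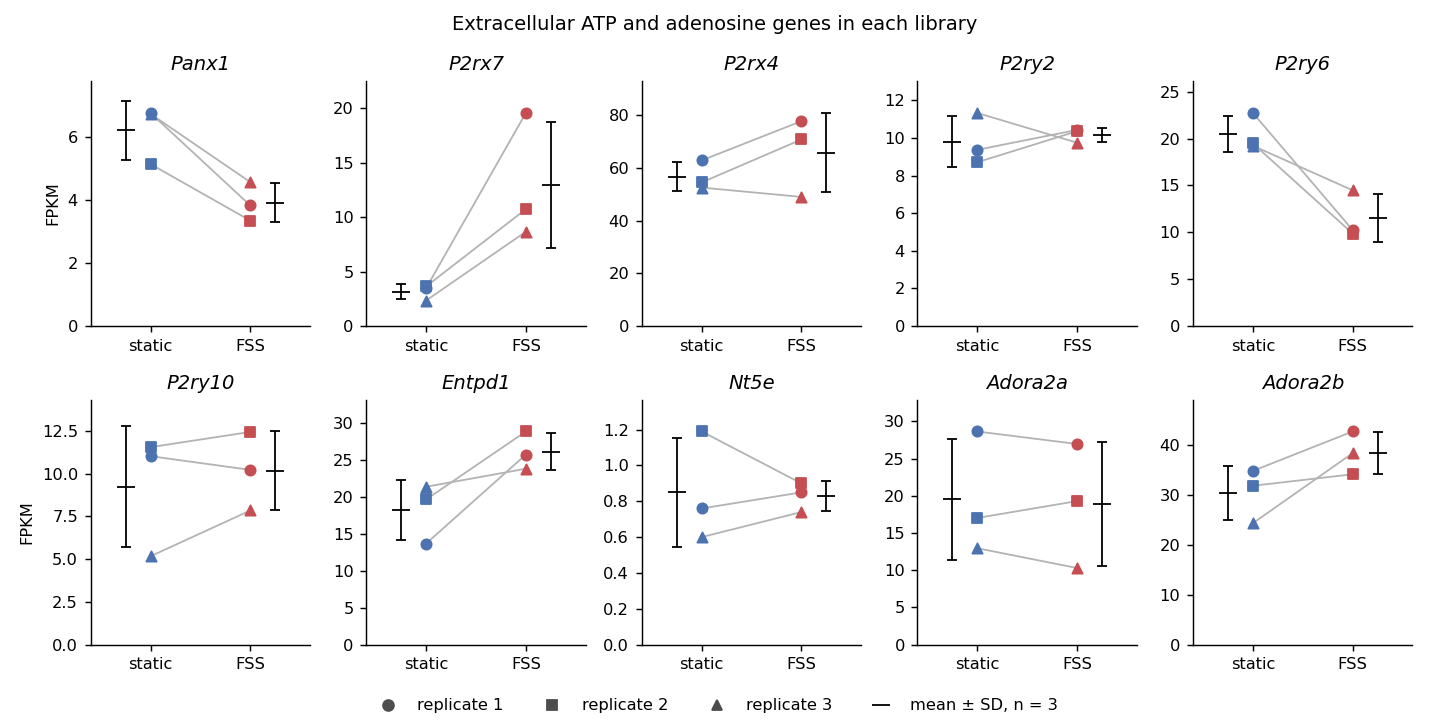
FPKM (y axis, from 0, scaled per gene) of the 10 genes in the static (blue) and FSS (red) libraries, with the marker shape and grey lines giving the replicate number and bars the mean ± SD of 3 libraries. P2rx7 and Entpd1 lie higher in all 3 FSS libraries, and Panx1 and P2ry6 lower, with no overlap between the groups.

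Panx1, the pannexin channel through which cells let out ATP, was measured at 6.75, 5.13 and 6.72 FPKM in static replicates 1 to 3 and at 3.82, 3.34 and 4.56 FPKM in FSS replicates 1 to 3. The highest FSS value lay below the lowest static value. The log2 difference was -0.55 ± 0.17 (SE), which did not pass (limma, Benjamini-Hochberg adjusted p = 0.155), and it fell with the replicate block (adjusted p = 0.00598). With any 1 pair left out the blocked adjusted p stayed between 0.00356 and 0.0296. The direction was the same with median-ratio scaling (log2 difference -0.42 with the block, adjusted p = 0.0109), although with that scaling and without pair 1 the call was lost (adjusted p = 0.0547).

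Of the P2X channels in the set, P2X7 opens to high concentrations of ATP and P2X4 to low ones. P2rx7 stood at 3.48, 3.64 and 2.34 FPKM in static replicates 1 to 3 and at 19.56, 10.73 and 8.66 FPKM in FSS replicates 1 to 3. All FSS values were above all static values, and FSS replicate 1 was the highest by far. The log2 difference was 1.69 ± 0.29 (SE; limma adjusted p = 0.0418, and 0.000884 with the replicate block), larger than that of 99.8% of tested genes. It was positive in each pair, at 2.20, 1.34 and 1.53. Without the block the call was lost when static replicate 1, 2 or 3 or FSS replicate 1 or 2 was left out (adjusted p = 0.158, 0.127, 0.117, 0.095 and 0.12) and held without FSS replicate 3 (0.0143). With the block it held without any 1 pair, the adjusted p being at most 0.000247. With library totals made equal the log2 difference was 1.74 and the call was lost (adjusted p = 0.058). Without the filter on low genes the difference stayed at 1.69 and the call was lost (0.118, or 0.0686 with the block), in a fit that called 0 of 18071 genes and in which limma warned of zero variances.

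P2rx4 gave 62.9, 54.53 and 52.57 FPKM in static and 77.8, 70.84 and 49.03 FPKM in FSS replicates 1 to 3. FSS replicates 1 and 2 were the highest of the 6 libraries and FSS replicate 3 the lowest, so the groups overlapped. The log2 difference of 0.19 ± 0.21 (SE) did not pass (limma adjusted p = 0.717, and 0.22 with the block), though with the block and median-ratio scaling it rose (0.35, adjusted p = 0.0165). That call was lost without pair 1 (adjusted p = 0.0636) and without pair 2 (0.159), and without pair 3 P2rx4 passed with the block alone as well (0.0127). In the RefSeq table P2rx4 overlaps Camkk2, a calcium-dependent kinase gene, and strand use is not stated, so reads of these genes may be shared. Camkk2 gave 41.94, 44.35 and 31.47 FPKM in static and 59.63, 55.7 and 26.29 FPKM in FSS replicates 1 to 3, which is also high in FSS replicates 1 and 2 and low in FSS replicate 3.

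P2rx7 and P2rx4 lie near each other on chromosome 5, with Mir8115 and Gm10064 listed between their starts, and their ratio does not depend on how libraries are scaled. P2rx7 amounted to 0.0553, 0.0668 and 0.0445 of P2rx4 in static replicates 1 to 3, and to 0.251, 0.151 and 0.177 of it in FSS replicates 1 to 3. All 3 FSS ratios were higher, and the exact two-sided permutation test gave p = 0.1, the smallest that 3 libraries against 3 allow. This test and the permutation tests below ignored the replicate numbers. The P2rx7 values alone did not overlap either, so the ratio is no separate support.

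**Figure D2:**
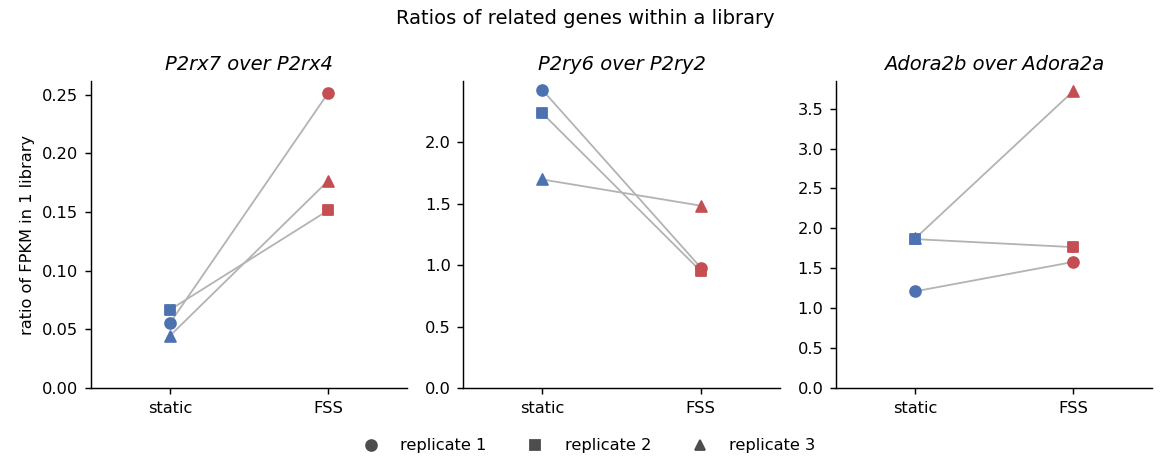
Ratio of the FPKM of 2 related genes within each library (y axis, from 0, scaled per panel) in static (blue) and FSS (red) libraries, with replicate numbers by shape and joined in grey. The ratio of P2rx7 to P2rx4 is higher and that of P2ry6 to P2ry2 lower in every FSS library, while Adora2b to Adora2a overlaps.

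Among the receptors that couple to G proteins, P2ry6 encodes the UDP receptor and P2ry2 the receptor of ATP and UTP. P2ry6 gave 22.73, 19.48 and 19.24 FPKM in static and 10.24, 9.87 and 14.48 FPKM in FSS replicates 1 to 3. The groups did not overlap, with FSS replicate 3 the nearest to the static values. The log2 difference was -0.79 ± 0.19 (SE; limma adjusted p = 0.086), and P2ry6 fell with the replicate block (adjusted p = 0.00573; median-ratio scaled as well, 0.0102). In pairs 1 to 3 it was -1.08, -0.91 and -0.39. Unblocked, it also passed without FSS replicate 3 (adjusted p = 0.0226). Blocked, it passed without any 1 pair (adjusted p at most 0.0134).

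P2ry2, next to P2ry6 on chromosome 7, gave 9.37, 8.71 and 11.33 FPKM in static and 10.43, 10.36 and 9.75 FPKM in FSS replicates 1 to 3. The FSS values lay inside the static range, and the log2 difference was 0.06 ± 0.16 (SE; limma adjusted p = 0.91). The ratio of P2ry6 to P2ry2 was 2.43, 2.24 and 1.70 in static and 0.982, 0.953 and 1.49 in FSS replicates 1 to 3. The ratios did not overlap (exact two-sided permutation p = 0.1, the smallest possible here), and neither did the P2ry6 values alone.

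P2ry10 belongs to the set by its name and its place among P2Y receptors, but it is known as a receptor of lysophosphatidylserine and not of nucleotides. It gave 11.03, 11.56 and 5.17 FPKM in static and 10.23, 12.45 and 7.85 FPKM in FSS replicates 1 to 3. The low values were those of replicate number 3 in both groups, and the groups overlapped (log2 difference 0.17 ± 0.30, SE; limma adjusted p = 0.84). Its neighbour and close relative P2ry10b stood at 10.15, 9.84 and 5.41 FPKM in static and 6.03, 5.87 and 5.17 FPKM in FSS replicates 1 to 3. P2ry10b fell with the block (adjusted p = 0.039) but not when scaled too (0.119). The division of reads between these relatives is uncertain.

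The ectoenzymes differed in level as well as in response. Entpd1 encodes CD39, which strips phosphates from ATP and ADP to leave AMP. It gave 13.69, 19.67 and 21.39 FPKM in static and 25.76, 28.89 and 23.84 FPKM in FSS replicates 1 to 3. All FSS values were above all static values, though FSS replicate 3 was only just above static replicate 3, and the pair differences were 0.87, 0.53 and 0.15 on the log2 scale. The overall log2 difference was 0.52 ± 0.20 (SE; limma adjusted p = 0.233), and Entpd1 rose with the replicate block (adjusted p = 0.0262). That call was lost without pair 1 (adjusted p = 0.154) and without pair 2 (0.0531) and held without pair 3 (0.00151). In blocked, median-ratio scaled data it rose in full (adjusted p = 0.0017) and without any 1 pair (at most 0.00149).

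Nt5e, the gene of CD73, which makes adenosine from AMP, gave 0.76, 1.19 and 0.6 FPKM in static and 0.85, 0.9 and 0.74 FPKM in FSS replicates 1 to 3. Only static replicate 2 reached 1 FPKM, so Nt5e did not enter the test, and its groups overlapped. Entpd1 exceeded Nt5e by a ratio of 16.5 to 35.6 in static and 30.3 to 32.2 in FSS libraries.

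The products of Adora2a and Adora2b both raise cyclic AMP, the former at lower and the latter at higher concentrations of adenosine. Adora2a gave 28.65, 17.02 and 12.95 FPKM in static and 26.97, 19.29 and 10.29 FPKM in FSS replicates 1 to 3. Each number had a similar value in both groups, with number 1 highest and number 3 lowest, and the log2 difference was -0.07 ± 0.38 (SE; limma adjusted p = 0.953), or 0.08 after median-ratio scaling. Adora2b gave 34.73, 31.76 and 24.27 FPKM in static and 42.62, 34.06 and 38.28 FPKM in FSS replicates 1 to 3. It was higher in all 3 pairs, by 0.29, 0.10 and 0.64, but the groups overlapped and it did not pass (log2 difference 0.34 ± 0.19, SE; limma adjusted p = 0.406; blocked, 0.0617). In blocked, median-ratio scaled data Adora2b rose (0.50, adjusted p = 0.0178). The ratio of Adora2b to Adora2a ran from 1.21 to 1.87 in static and from 1.58 to 3.72 in FSS libraries (exact two-sided permutation p = 0.6).

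**Figure D3:**
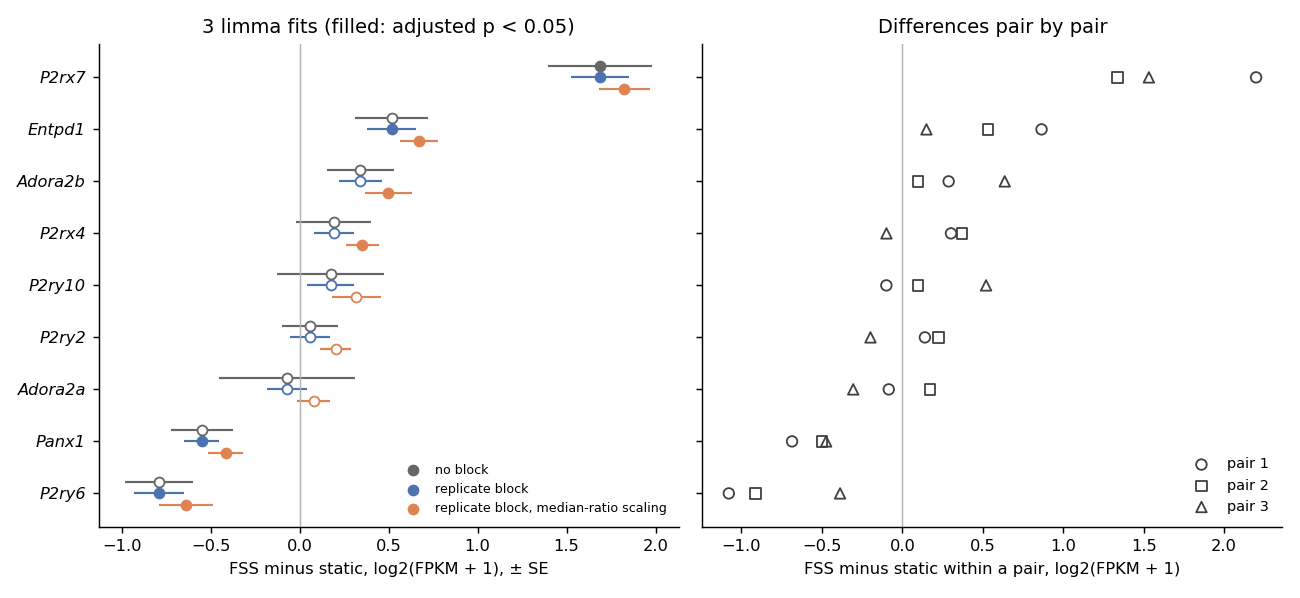
Left, FSS minus static on the log2(FPKM + 1) scale with its SE for the 9 tested genes in 3 limma fits, filled where the adjusted p was under 0.05. Right, the same difference within each replicate number. P2rx7 is filled in all 3 fits, Entpd1, Panx1 and P2ry6 in the fits with the block, and P2rx4 and Adora2b only with median-ratio scaling added.

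Counted over the set, 1 of the 9 tested members was higher and 0 were lower without the block, where 0.853% of the 10899 genes tested were higher and 0.862% lower (limma, adjusted p under 0.05; 4 of the 9 had an unadjusted p under 0.05). With the block 2 were higher and 2 lower, against 7.73% and 25.1% of all tested genes. After blocking and median-ratio scaling 4 were higher and 2 lower, against 19.2% and 16.8%. The groups did not overlap for P2rx7 and Entpd1 (FSS higher, against 5.1% of tested genes) and for Panx1 and P2ry6 (FSS lower, against 20.4%). The falls with the block are thus close in share to the fall of tested genes at large. The median difference of the 9 was 0.17, beside -0.12 for all tested genes.

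The replicate number moved several members more than FSS did. On the log2 scale the libraries numbered 3 averaged 0.90 lower than the others for Adora2a, 0.73 lower for P2ry10 and 0.57 lower for P2rx7, and 0.22 higher for Panx1. For P2rx4 they averaged 0.37 lower and for P2ry2 0.11 higher. For Adora2a, P2ry10 and P2rx4 these gaps exceed the FSS differences in size. For P2ry2 number 3 was highest in static (11.33 FPKM) and lowest in FSS (9.75 FPKM), so its average gap is no shared shift. For P2rx7, Panx1, P2ry6, Entpd1 and Adora2b they are smaller. What a replicate number stands for is not given in the labels.

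The wider pathway was read from 9 lists with 77 tested genes, 68 of them outside the set. Without the block none of those 68 passed by limma; over all 77, P2rx7 included, 17 had an unadjusted p under 0.05. With the block 8 of the 68 were higher and 16 lower; after scaling as well, 20 and 9. Among all tested genes 7.73% were higher and 25.1% lower with the block, and 19.2% and 16.8% after scaling, so the falls of the 68 with the block are near the background share. Their median difference was -0.09, beside -0.12 for all tested genes. The counts per list below are to be read against the same shares.

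Among 8 tested genes of ATP release, 2 rose and 2 fell with the block, the falls at the share of all tested genes (25.1%). Lrrc8d and Lrrc8c are subunits of the volume-regulated anion channel, and they parted: Lrrc8d went from 26.1 ± 3.07 to 51.0 ± 9.88 FPKM (mean ± SD, n = 3; limma adjusted p = 0.00375 with the block) and Lrrc8c from 38.2 ± 3.49 to 21.9 ± 4.38 FPKM (adjusted p = 0.0023). Neither pair of groups overlapped, and neither gene passed without the block (adjusted p = 0.0651 and 0.0861). Calhm6, a member of the CALHM channel family, rose with the block from 5.50 ± 1.59 to 13.6 ± 5.97 FPKM, and the other fall was Panx1. Panx2, Calhm1 and Lrrc8e stayed at or under 0.02 FPKM in all libraries.

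Of the other nucleotide receptors, P2rx5, P2ry1 and P2ry13 were tested and did not pass with the block (P2ry1 did once scaled too, adjusted p = 0.0493), and P2ry14, the receptor of UDP-glucose, fell from 33.8 ± 4.09 to 25.1 ± 2.69 FPKM (mean ± SD, n = 3; limma adjusted p = 0.0149 with the block, but 0.064 once scaled too). P2rx1, P2rx2, P2rx3, P2rx6, P2ry4, P2ry12, Adora1 and Adora3 were under 1 FPKM in every library. Among 5 tested ectonucleotidases 3 rose with the block and none fell: Entpd1, its relative Entpd3, and Cd38, which cleaves NAD. The share of all tested genes that rose with the block was 7.73%. Once scaled too, 4 of the 5 rose, with Bst1 added (limma adjusted p = 0.0148), where 19.2% of all tested genes rose. Entpd3 reached 1 FPKM only in the FSS libraries. It thus entered the test through the group in which it is high, and its call is no support for either count. Entpd3 was low, at 0.277 ± 0.274 and 1.24 ± 0.266 FPKM, and Cd38 went from 15.6 ± 7.28 to 21.8 ± 10.8 FPKM with overlapping groups (limma adjusted p = 0.0115 with the block, 0.682 without).

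Of 7 tested genes that clear adenosine and its products, 3 fell with the block and 0 rose, where 25.1% of all tested genes fell. Pnp, which splits inosine and guanosine, went from 88.0 ± 9.64 to 57.2 ± 5.16 FPKM (mean ± SD, n = 3; limma adjusted p = 0.00355 with the block). Slc29a3, a nucleoside transporter of inner membranes, went from 47.9 ± 10.0 to 34.1 ± 6.89 FPKM and Adk, the adenosine kinase, from 9.47 ± 1.35 to 7.45 ± 0.617 FPKM. The Adk call was lost with median-ratio scaling (adjusted p = 0.183), and with that scaling 2 fell and 1 rose, the nucleoside transporter gene Slc29a1 (log2 difference 0.37, adjusted p = 0.0145).

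**Figure D4:**
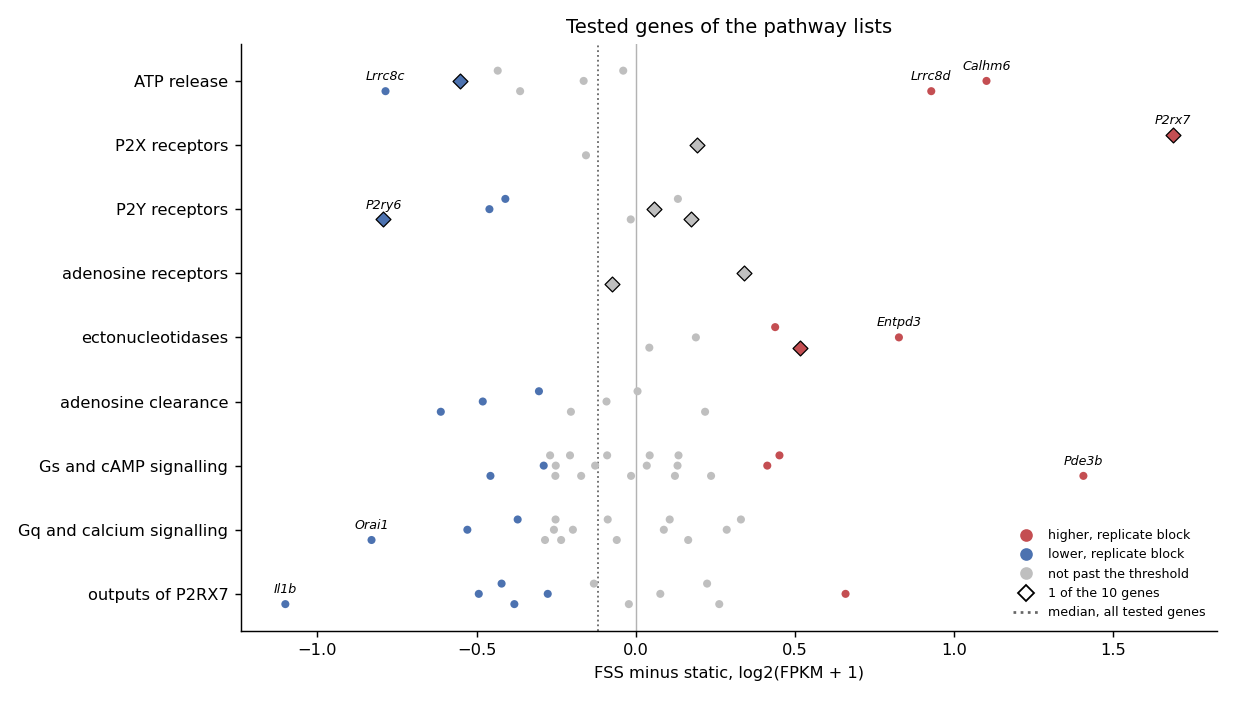
FSS minus static on the log2(FPKM + 1) scale (x axis) for the tested genes of 9 pathway lists (y axis; the height within a list carries no value). Red and blue points passed with the replicate block, grey ones did not, diamonds are members of the set, and the dotted line is the median of all tested genes at -0.12; P2rx7 lies furthest to the right.

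Downstream of the adenosine receptors, the block gave 3 rises and 2 falls among 19 tested genes of Gs and cyclic AMP signalling (7 and 1 once scaled), beside 7.73% and 25.1% of all tested genes (19.2% and 16.8% once scaled). Pde3b, a phosphodiesterase that breaks down cyclic AMP, went from 2.40 ± 0.59 to 8.32 ± 3.29 FPKM (mean ± SD, n = 3; limma adjusted p = 0.0504 without and 0.00233 with the block), and the groups did not overlap. Pde4b, another phosphodiesterase, went from 40.6 ± 17.6 to 55.5 ± 21.7 FPKM with overlap, and Crtc2, a coactivator of CREB, from 18.1 ± 1.57 to 24.6 ± 3.45 FPKM. The falls were in subunits of protein kinase A, Prkacb (8.79 ± 0.839 to 6.13 ± 0.501 FPKM) and Prkar1a (58.4 ± 3.32 to 47.9 ± 6.29 FPKM), the latter lost with scaling (adjusted p = 0.344).

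Downstream of P2Y receptors and calcium entry, the block gave 3 falls and 0 rises among 15 tested genes (2 and 3 once scaled), no more falls than the 25.1% of all tested genes. Orai1, the pore of store-operated calcium entry, went from 50.8 ± 13.9 to 27.9 ± 5.90 FPKM (limma adjusted p = 0.00176 with the block, 0.133 without). Gna15, a G protein subunit of the Gq class, went from 28.5 ± 7.42 to 19.8 ± 6.81 FPKM, and Trpv2, a cation channel, from 37.0 ± 10.8 to 28.2 ± 7.03 FPKM, a call lost with scaling (adjusted p = 0.0742).

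Among 11 genes that act with or after P2X7, the block gave 1 rise and 5 falls (3 and 3 once scaled), in a fit that called 7.73% of all tested genes higher and 25.1% lower (19.2% and 16.8% once scaled). The sheddase gene Adam17 rose from 40.7 ± 9.72 to 67.2 ± 26.0 FPKM and its relative Adam10 fell from 47.6 ± 3.01 to 33.7 ± 4.65 FPKM. Il1b, a cytokine that the inflammasome matures, was at 579, 252 and 153 FPKM in static and 221, 111 and 91.1 FPKM in FSS replicates 1 to 3. It was lower in each pair but overlapping (limma adjusted p = 0.307 without and 0.00134 with the block). Pycard, Casp1 and Gsdmd, the adaptor, protease and pore of the inflammasome route, also fell with the block (adjusted p = 0.0198, 0.0467 and 0.0148), and Casp1 and Gsdmd lost the call with scaling. Nlrp3 itself gave a log2 difference of 0.08 and did not pass (adjusted p = 0.919, and 0.606 with the block). The cytokine gene Il18 was low and went the other way, from 0.927 ± 0.389 to 1.30 ± 0.346 FPKM with overlapping groups. It was higher in each pair, by 0.20, 0.23 and 0.36 (limma adjusted p = 0.077 with the block, 0.0297 once scaled too). Ninj1 also passed as higher only once scaled (adjusted p = 0.0136). P2rx7 stood higher under FSS in the same libraries in which Il1b stood lower than in their paired controls.

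Macrophage genes were looked at beside P2rx7, because macrophages express it. Of the 8 listed, the block gave 2 rises and 2 falls (4 and 2 once scaled), beside 7.73% and 25.1% of all tested genes (19.2% and 16.8% once scaled). Mertk was at 20.3, 21.4 and 12.3 FPKM in static and 57.3, 49.8 and 22.0 FPKM in FSS replicates 1 to 3. Fcgr1 fell from 6.11 ± 1.09 to 3.56 ± 0.525 FPKM (mean ± SD, n = 3). The other rise was Adgre1 (33.0 ± 10.8 to 42.3 ± 15.0 FPKM) and the other fall Cd14 (183 ± 61.9 to 129 ± 45.4 FPKM). The summed level of the 8 genes overlapped between the groups. Cd14 and Csf1r (143 ± 11.8 to 158 ± 22.6 FPKM) were its largest terms, so the sum says little of lower genes such as Mertk. The part of any change in cell make-up in the P2rx7 difference was not tested.

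The genes whose profile over the 6 libraries was most like that of P2rx7, by root mean square difference of centred log2(FPKM + 1) values, were Gpr141 (0.178), Gem (0.185) and Arrdc3 (0.19). Gpr141, an orphan receptor gene, gave 7.26, 6.64 and 5.42 FPKM in static and 27.7, 20.2 and 12.8 FPKM in FSS replicates 1 to 3, with FSS replicate 1 highest as for P2rx7. For P2ry6 the most similar were Ctps (0.101), Ash2l (0.12) and Rab7b (0.123). Ctps, which encodes CTP synthase and so uses the nucleotide UTP, gave 4.72, 4.26 and 4.84 FPKM in static and 1.78, 1.94 and 2.64 FPKM in FSS replicates 1 to 3. These genes were found by their likeness, which is therefore a description with no test.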

How the data were processed

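Messenger RNA was sequenced in 3 static and 3 FSS libraries, grouped and numbered by their titles. The authors deposited 1 expression value per gene and library in a table of 22899 genes, 4828 of them blank throughout, and the files of single samples held the same values. Per the file headers the deposited values are "Expression" with no unit or scaling given, and they were read as FPKM made by the authors, a reading that rests on their sums: value times transcript length came to 0.552 to 0.609 of the total that FPKM imply with median lengths and to 1.14 to 1.28 with the longest ones. HISAT and Bowtie2 are the tools listed in the processing notes of the submitters, no versions stated. Quantifier, build, annotation and strand use: not given in the sources used here. Names, neighbours and promoter windows are from RefSeq tables of GRCm38.p6.

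The 10899 genes that reached 1 FPKM in 3 or more libraries were tested with limma 3.58.1 in R 4.3.3 on log2(FPKM + 1) with a variance trend, FSS minus static, two-sided, Benjamini-Hochberg adjusted over all genes tested, threshold 0.05. This scale understates changes of low genes. Adjusted p-values are from this model. Folds are ratios of mean FPKM. The fitting code was tested on simulated data. The design assumed counts or FPKM and the branch for FPKM was used. The 10 genes, the lists and the tests were chosen with earlier results of these data known. Named genes were the 10, every gene of a pathway list that passed with or without the block (up to 5 a direction, or the 2 of smallest adjusted p where none passed), and the 3 most similar genes for the 2 members with the largest differences; other genes named were chosen after their values were seen.

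After subtracting group means, libraries of the same replicate number correlated across genes (Pearson 0.792, 0.664 and 0.866), against -0.781 to 0.279 between different numbers. The deviations of a group cancel out for each gene, so the negative values between numbers follow in part from the subtraction. Between numbers 1 and 2 the values were 0.216 and 0.279. Same-numbered libraries were treated as pairs because of their own correlations, since the labels do not state pairing. A second fit included the number as a block. The alternatives tried were the block, other scalings, each library left out, no trend, no filter, a threshold of 0.01 and a pseudocount of 0.1; the block with pairs left out, or with no filter, was added after seeing the data.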

Additional observations from a re-analysis of the deposited data

How the results depend on the processing

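The directions of P2rx7, Entpd1, P2rx4, Adora2b, Panx1 and P2ry6 were the same under all alternatives run. Counts of calls depended on the fit; causes were not tested. All genes called (187), members called (1) and pathway genes called (1) became 3581, 4 and 28 with the replicate block, and 3921, 6 and 35 when median-ratio scaled too. In settings chosen after seeing the data, with the block and pair 1, 2 or 3 left out they were 2122, 3 and 14, 2511, 4 and 21, and 4270, 5 and 35. Scaled too they were 2635, 5 and 23, 2766, 5 and 25, and 3909, 6 and 35. Totals made equal gave 113, 0 and 0, a threshold of 0.01 gave 5, 0 and 0, and median-ratio scaling alone gave 3 pathway genes. Without a filter limma called 0, 0 and 0, with and without the block, although 5301 and 2692 genes had an unadjusted p under 0.05; limma warned of zero variances in these fits. Leaving out 1 library gave 3 to 467 genes, 0 to 2 members and 0 to 5 pathway genes. The number of members whose 3 pairs shared a sign was 5, and 7 with median-ratio scaling.

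Small differences turned in sign. Leaving out 1 library moved P2ry2 between -0.0169 and 0.16, P2ry10 between -0.16 and 0.35 and Adora2a between -0.37 and 0.29. With the block, P2ry2 was -0.0287 without pair 2, P2ry10 -0.0003 and Adora2a 0.0435 without pair 3. Adora2a was 0.0779 with median-ratio scaling, both with and without the block, and with both 0.11 without pair 1 and 0.13 without pair 3. Depth is unknown, which limits statements on genes near 1 FPKM such as Nt5e and Entpd3.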
